A study of Homo sapiens with 12 samples.

Results

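NT2/D1 (NTERA2) cells with a short hairpin RNA that targets ZRF1 were compared with cells carrying a random hairpin after both had received 0.01 µM retinoic acid for 3 h. The comparison rested on 6 of the 12 arrays of the series, chosen by their titles: 3 biological replicates, each measured on a forward array and on an array with the dyes exchanged. NT2/D1 is a human embryonal carcinoma line, a malignant counterpart of early embryonic cells that can be driven toward neurons by retinoic acid. The knockdown group is named shZRF1 in the titles, whereas the characteristics count its cell line from shZRF1 to shZRF6 over the replicates of both times; the control is shRandom throughout. Whether the knockdown cells are a pool or a clone, and whether the hairpin acts continuously, is not stated in the labels. Replicates of the study were taken on different days, and which replicate belongs to which day is not stated either, so the day could not be used as a batch. The other 6 arrays set the same lines side by side without retinoic acid (0 h). No array set treated against untreated RNA, so the values below are knockdown effects in the presence of retinoic acid and not the response to it.

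ZRF1 is the product of DNAJC2, a J-domain protein. At the ribosome it works with a specialised HSP70 as a chaperone of the growing peptide chain. It has also been described on chromatin, where it binds ubiquitinated histone H2A and takes part in the release of Polycomb repression during retinoic acid treatment. Retinoic acid acts through nuclear receptors that switch on HOX genes, its own degrading enzymes and neural regulators, and the embryonal carcinoma programme is lost over the following days.

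Each value below is a log2 ratio of knockdown over control, so that a positive value means more RNA in the knockdown. A gene was said to rise or fall where its adjusted p was under 0.05 by limma, a linear model across all genes in which the spread was shared with the 0 h replicates. In bulk RNA of this kind, fewer cells of a type and less RNA per cell cannot be told apart. The files hold ratios and no signal intensities, so the level of a gene, its distance from background and the presence of cell type markers could not be checked.

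The arrays differed in spread. Between percentiles 1 and 99 the log2 ratios spanned 3.04 on the forward array of replicate 1 and 1.10 on the swapped array of replicate 3, and 0.745 to 0.917 on the 4 other arrays at 3 h. These 2 arrays, together with the swapped array of replicate 2 at 0 h, exceeded 1.2 times the median range of all arrays and are called wide here. Among genes that passed the test, the values of the forward array of replicate 1 had a slope of 2.19 on the mean of the 4 arrays that were not wide, and the swapped array of replicate 3 had 1.28. Arrays of the same dye orientation correlated across genes at 0.542 to 0.710 (forward) and 0.498 to 0.615 (swapped). Within a replicate the forward array and the swapped array, its sign turned, correlated at only -0.137 to 0.162. In a limma fit of single arrays, 6601 of 18646 genes had a dye coefficient with an adjusted p under 0.05. Averaging removes a dye effect only where it is additive and of like size on both arrays. Ribosomal protein genes had a median of -1.28 on the forward array of replicate 1 and 0.39 on its swapped array. The counts of the gene lists, and each gene described as changed whose value moved by over 1.5 times, are given with and without the wide arrays.

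At 3 h the knockdown changed many genes by a little and few by much. Of 18646 genes, 2350 passed the test (12.6%), of which 1275 were higher (6.84%) and 1075 lower (5.77%) in the knockdown. The median absolute log2 ratio of these genes was 0.174, the 90th percentile was 0.341, and 37 of them (20 higher, 17 lower) exceeded 1.5-fold. All 2350 had the same sign in 3 of 3 replicates, and 1806 of them (76.9%) had the same sign on all 6 arrays, against 16.7% of all genes. The test itself favours genes with like values in the replicates, so these shares describe the called genes and do not test them. Probes with no gene symbol or several were tested apart: of 11659, 161 were higher and 106 lower (2.29%). With the 3 replicates at 3 h fitted alone, limma called 0 genes, although 4147 had an unadjusted p under 0.05. The calls therefore rest on the spread shared with the 0 h replicates.

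The targeted gene was lower in the knockdown on every array. DNAJC2 (chromosome 7, 1 probe) had log2 ratios of -1.62, -0.44 and -0.82 in replicates 1, 2 and 3. The forward array of replicate 1 stood apart at -2.73, whereas the 4 arrays that were not wide lay between -0.66 and -0.39. The fitted log2 ratio was -0.96 ± 0.21 (SE of the fit, 3 replicates at 3 h), which is 0.514 of the control level (adjusted p = 0.0348 by limma). This SE, like those below, rests on the spread shared with the 0 h replicates and across genes. It is not the SE of the 3 replicate values alone. Without the wide arrays the log2 ratio was -0.51 (adjusted p = 7.67e-06 by limma with a dye coefficient). That fit took single arrays with a correlation within a replicate of 0.0435, so they counted as nearly separate samples. Its p-value is therefore not comparable with that from replicate averages. The call from replicate averages was kept in 2 of the 6 fits that left out 1 replicate. In the other 4 the adjusted p rose to between 0.0545 and 0.0736 by limma. The size of the knockdown moved by more than 1.5 times with the choice of arrays, while its direction was the same on 6 of 6.

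The genes that rose most came from unrelated functions. NLRP2 encodes a member of the NOD-like receptor family that is expressed in early embryos, and its log2 ratios were 2.03, 0.81 and 1.17 in replicates 1 to 3. NLRP2B, a close relative of NLRP2, had 1.06, 0.78 and 0.86. The copies are near-identical, so a probe of one may also bind the RNA of the other, which was not tested. TMEM204, which encodes an adherens junction membrane protein, had 1.82, 0.86 and 1.03. Replicate 1 was the highest of the 3 for each of these genes, and NLRP2 went from a fitted 1.33 to 0.88 without the wide arrays. HEY1, a transcriptional repressor downstream of Notch, had 1.00, 0.67 and 0.83, and MYH9, the heavy chain of non-muscle myosin IIA, had 1.00, 0.55 and 0.80. TMEM125, which encodes another membrane protein, was more even at 0.88, 0.84 and 0.83 (fitted log2 ratio 0.85 ± 0.06, adjusted p = 0.00393 by limma).

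Below these leaders came a group of genes whose sizes depended to different degrees on 1 array. A2M, the secreted protease inhibitor alpha-2-macroglobulin, had 1.22, 0.40 and 0.48, and its forward array of replicate 1 read 2.06 where the 4 arrays that were not wide lay between 0.31 and 0.49. The fitted log2 ratio of A2M went from 0.70 to 0.40 without the wide arrays. FLI1, an ETS transcription factor of blood and endothelial cells, had 0.96, 0.30 and 0.50, and its log2 ratio went from 0.59 to 0.32 without the wide arrays. LEMD1 (0.69, and 0.44 without the wide arrays) and PPFIBP2 (0.59 and 0.35) behaved alike. Of similar size, DHRS2, ASTE1 and LINC02899 did not lean on that array. DHRS2, a mitochondrial short-chain dehydrogenase, had 0.68, 0.61 and 0.58, and the 4 arrays that were not wide ran from 0.54 to 0.67. ASTE1 had 0.50, 0.68 and 0.65, and the non-coding transcript LINC02899 had 0.56, 0.69 and 0.61. For these latter genes replicate 1 was the lowest, and the log2 ratios were 0.64 and 0.67 without the wide arrays. SPARCL1, a matrix glycoprotein related to SPARC, rose by 0.59 ± 0.06 and still stood at 0.50 without the wide arrays. ECSCR, an endothelial surface protein, and HHIPL2 each rose by 0.63, and stood at 0.47 and 0.48 without them. The forward array of replicate 1 read highest for SPARCL1 (1.06), ECSCR (1.29) and HHIPL2 (1.06).

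The genes that fell most included several of intermediary metabolism. PCK2, the mitochondrial phosphoenolpyruvate carboxykinase, had log2 ratios of -1.50, -0.63 and -0.82, and the 4 arrays that were not wide lay between -0.74 and -0.61. OXCT1, which lets cells use ketone bodies as fuel, had -0.77, -0.58 and -0.82 (fitted log2 ratio -0.72 ± 0.05, adjusted p = 0.00393 by limma). CPT1C, a brain-type relative of the carnitine palmitoyltransferases, had -0.72, -0.50 and -0.54. Every array was below 0 for each of these genes. MX2, an interferon-induced antiviral GTPase, had -1.03, -0.60 and -0.78, and HESX1, which acts as a repressor in forebrain and pituitary development, had -0.90, -0.44 and -0.81. STC2, a secreted glycoprotein induced by stress, was steady at -0.77, -0.54 and -0.61, as was the lens crystallin CRYGD at -0.75, -0.60 and -0.77.

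Further genes fell with a larger part from the forward array of replicate 1. PLAAT3, a phospholipase and acyltransferase, had -1.47, -0.40 and -0.60, and its log2 ratio moved from -0.82 to -0.43 without the wide arrays. The integrin subunit ITGA7 had -1.05, -0.37 and -0.31, and its log2 ratio moved from -0.58 with all arrays to -0.28 without the wide ones. The slow skeletal troponin TNNT1 went from -0.59 to -0.38, the secreted spondin SPON2 from -0.64 to -0.38, and the receptor accessory protein REEP2 from -0.59 to -0.32. LAG3, an inhibitory receptor of lymphocytes, had -0.86, -0.46 and -0.43. These 40 genes were taken from those that passed with 1 sign in all replicates, which in part fixes their agreement among arrays. All 40 also passed without the wide arrays, but that fit used part of the same arrays and counted those of a replicate as nearly separate samples. With 1 replicate left out, A2M, PLAAT3, REEP2, ITGA7 and ASNS each kept their call in 1 of the 6 fits. Other genes, HEY1, OXCT1 and CRYGD among them, kept it in all 6.

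**Figure D1:**
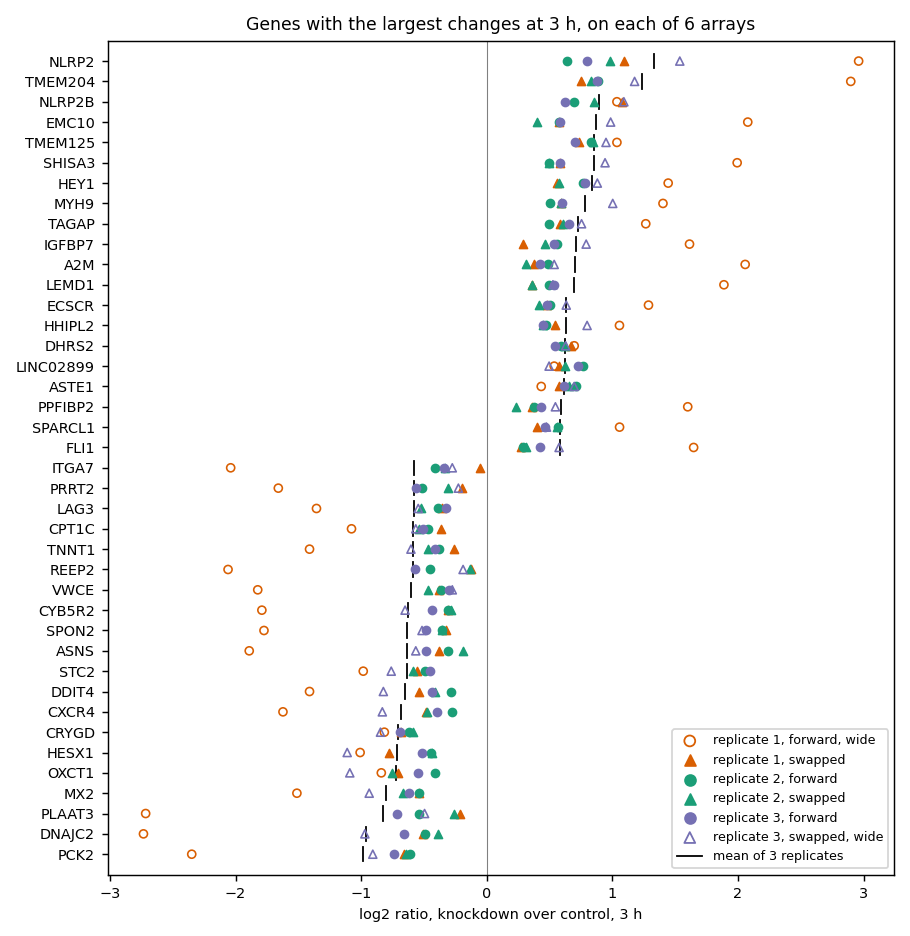
Log2 ratio of knockdown over control (x axis) at 3 h for the 20 highest and the 20 lowest genes past the threshold (y axis), with 1 point per array and a bar at the mean of 3 replicates. Open symbols are the 2 wide arrays; the forward array of replicate 1 lies far outside the others for genes such as TMEM204, A2M and PCK2, and among them for DHRS2, CRYGD and NLRP2B.

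The fit without the wide arrays gave smaller values for most of the genes that changed most. It used single arrays and a dye coefficient, so its counts are set against the same kind of fit on all arrays, which called 3567 genes (19.1%), and not only against the 2350. The correlation within a replicate was estimated at 0.0435 without the wide arrays and 0.0351 with all. The arrays of a replicate therefore counted as nearly separate samples in these fits. Between these like fits 2785 genes passed in both with the same direction and 0 with opposite ones, 782 passed only with all arrays and 682 only without the wide ones. The fit without them called 1729 genes higher (9.27%) and 1738 lower (9.32%). Of the 2350 genes from replicate averages it shared 1112 higher and 966 lower genes (88.4%), and 0 genes passed in opposite directions. A further 272 genes passed only in the fit of replicate averages, and 1389 only in that without the wide arrays. Over 1.5-fold there were 64 genes with all arrays, 27 of which did not pass the test, and 20 genes without the wide arrays, 16 of which passed. Genes with extreme single readings were among those that did not pass. ADGRE5, an adhesion receptor of leukocytes, read -14.8 on the forward array of replicate 1 and 0.06 to 0.19 on the others. MTHFD1L, a mitochondrial one-carbon enzyme, read -5.04 there, and 0.04 and 0.10 in replicates 2 and 3.

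**Figure D2:**
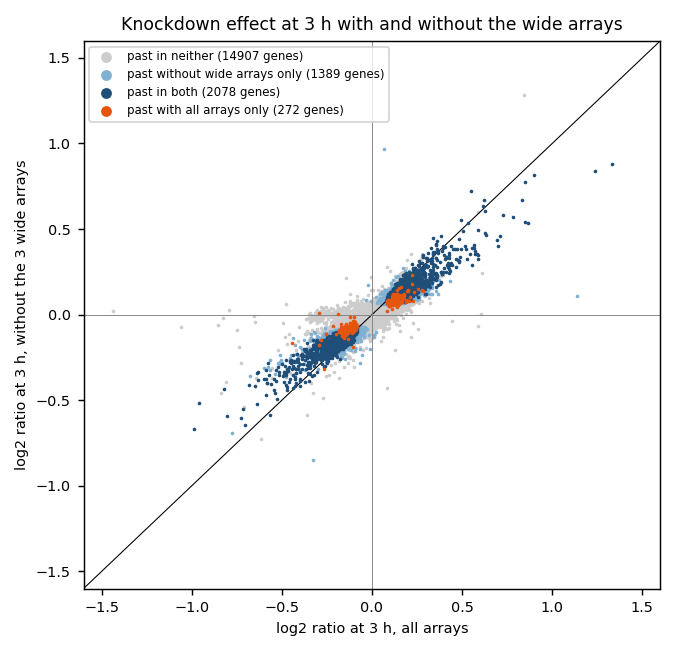
Log2 ratio of each gene at 3 h with all arrays (x axis) against that without the 3 wide arrays (y axis); colours give the fit or fits in which a gene passed, and 3 genes lie outside the plotted range of 1.6 in either direction. Most large values fall nearer to 0 on the y axis than on the diagonal line of equality, and the 2078 genes past in both fits lie in the lower left and upper right fields.

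In the gene lists below, calls are to be read against the 6.84% of all genes that were higher and the 5.77% that were lower, or 9.27% and 9.32% without the wide arrays. Among genes of the amino acid response 15 fell and 0 rose. This response is run by the kinase GCN2 and the transcription factor ATF4, which raise amino acid synthesis, import and tRNA charging when amino acids are short. The other 45 of the 60 measured members did not pass. The median log2 ratio of the list was -0.13, where all genes had a median of 0.00, and 12 members lay above 0. Without the wide arrays 3 were higher and 24 lower, with a median of -0.07, and with any 1 replicate left out between 5 and 13 passed. The list's median was -0.41 on the forward array of replicate 1, which stood apart from the other 5.

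Each branch of the response held members that fell. Of 9 stress effectors 4 fell: DDIT4, an inhibitor of mTORC1 (-0.97, -0.35 and -0.63 in replicates 1 to 3), STC2, SESN2, a leucine sensor that also restrains mTORC1 (-0.58, -0.26 and -0.42), and CHAC1, which degrades glutathione (-0.28, -0.21 and -0.19). Of 13 tRNA synthetases 4 fell, namely CARS1, LARS1, WARS1 and SARS1, with log2 ratios from -0.31 to -0.18. DDIT4, CARS1 and LARS1 stood at -0.42, -0.19 and -0.20 without the wide arrays. Among 15 enzymes PCK2 and asparagine synthetase (ASNS) fell. The ASNS values were -1.14, -0.25 and -0.53 (fitted log2 ratio -0.64 ± 0.15, adjusted p = 0.0436 by limma), and -0.34 without the wide arrays. Replicate 1 was the lowest of the 3 for ASNS, DDIT4 and SESN2, and all 6 arrays were below 0. Of 11 transporters, the cystine carrier SLC7A11 (-0.19) and the neutral amino acid carrier SLC1A4 (-0.13) fell. Among 12 factors and sensors TRIB3, DDIT3 and the kinase EIF2AK2 fell by 0.28, 0.25 and 0.15 on the log2 scale, and read -0.16, -0.19 and -0.10 without the wide arrays. CARS1 and TRIB3 averaged -0.59 and -0.51 on the forward arrays, and -0.02 and -0.04 on the swapped ones. With 1 replicate left out, ASNS, CARS1 and TRIB3 each kept their call in 1 of the 6 fits. ATF4 itself read -0.52, -0.10 and -0.03 with an adjusted p of 0.181 by limma, and the serine synthesis enzymes PHGDH (-0.26) and PSAT1 (-0.24) also missed the threshold.

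The promoters of 3 members are shown because they hold the letters TGATGNAA, a form of the composite element that ATF4 and C/EBP factors bind. They run from 250 bases before to 50 bases after the RefSeq start on GRCh38.p14, are written on the gene's strand, and carry the match in capitals. The windows are chr7:97872359-97872658 (minus strand) for ASNS, chr15:40953221-40953520 (plus strand) for CHAC1 and chr11:3057374-3057673 (minus strand) for CARS1. The capitals of CHAC1 and CARS1 read the motif on the opposite strand.
ASNS: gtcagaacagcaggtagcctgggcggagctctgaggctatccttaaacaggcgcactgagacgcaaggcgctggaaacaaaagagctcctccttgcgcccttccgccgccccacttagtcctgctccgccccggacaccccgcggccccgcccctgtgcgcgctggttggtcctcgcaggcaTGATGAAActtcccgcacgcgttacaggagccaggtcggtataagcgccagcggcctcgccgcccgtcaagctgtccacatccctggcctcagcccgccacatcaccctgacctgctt
CHAC1: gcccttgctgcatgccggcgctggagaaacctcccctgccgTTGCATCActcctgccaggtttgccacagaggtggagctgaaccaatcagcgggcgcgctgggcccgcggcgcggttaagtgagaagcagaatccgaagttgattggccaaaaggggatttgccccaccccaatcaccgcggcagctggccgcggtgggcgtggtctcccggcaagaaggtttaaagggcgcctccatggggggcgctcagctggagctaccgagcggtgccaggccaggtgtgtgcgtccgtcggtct
CARS1: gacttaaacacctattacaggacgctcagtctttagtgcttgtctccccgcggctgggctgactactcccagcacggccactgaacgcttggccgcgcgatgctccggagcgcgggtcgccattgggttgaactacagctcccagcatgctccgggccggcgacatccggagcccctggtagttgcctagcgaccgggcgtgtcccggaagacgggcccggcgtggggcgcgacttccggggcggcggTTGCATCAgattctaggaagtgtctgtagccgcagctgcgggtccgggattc
Counted from the annotated start, the match began at base -68 in ASNS, -209 in CHAC1 and -2 in CARS1. Searched on both strands, the motif stood in 15 of the 49 members with a promoter (30.6%), against 3.67% of all 27305 promoters of that length. Among the members that fell, 3 of 13 with a promoter held it, and among those that did not pass, 12 of 36. A match is a description of the letters and not a bound site.

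Several chaperones of the endoplasmic reticulum rose. Of 45 members of the endoplasmic reticulum list, 8 rose and 1 fell (median log2 ratio 0.05), and without the wide arrays 11 rose and 1 fell. Those that rose included PDIA4, a disulfide isomerase (0.61, 0.25 and 0.31), DNAJB9, a cochaperone induced by unfolded protein (0.56, 0.18 and 0.20), and the HSP70 of this compartment, HSPA5 (0.36, 0.15 and 0.12). Replicate 1 was the highest for each of the 3, and without the wide arrays they stood at 0.24, 0.19 and 0.12. HSPA5 was called in 0 and DNAJB9 in 1 of the 6 fits with 1 replicate left out. The list as a whole had 1 to 6 members past the threshold in those fits. DNAJB9 averaged 0.57 on the forward and 0.06 on the swapped arrays. PDIA4, DNAJB9 and CREB3L2, which also rose, lie on chromosome 7, where 20.3% of the measured genes rose. EMC10, a subunit of the membrane insertion complex of the endoplasmic reticulum, rose most in this list (1.33, 0.49 and 0.79; fitted 0.87, and 0.54 without the wide arrays), yet of 11 genes of that complex and the translocon only EMC2 (0.13) rose with it and EMC9 (-0.11) fell.

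Partners of ZRF1 in protein synthesis did not move as a group. Among 5 ribosome-associated chaperone genes only DNAJC2 passed; its HSP70 partner HSPA14 read -0.38, -0.05 and -0.08 (adjusted p = 0.127 by limma). Of 48 cytosolic chaperones and cofactors 3 rose and 2 fell, DNAJC2 included, and without the wide arrays 4 rose and 3 fell. The small heat shock protein HSPB8 rose by 0.21, with 0.05, 0.25 and 0.34 in the replicates. Of 67 ribosomal protein genes 0 passed in either direction, and of 49 translation and ribosome assembly factors only the initiation factor subunit EIF2B4 fell (-0.10), a call that was lost without the wide arrays. There, 1 ribosomal protein gene and 2 translation factors were higher and 2 translation factors lower. The median of the ribosomal protein genes was -0.18 with all arrays and 0.01 without the wide ones. It was -1.28 on the forward array of replicate 1, and it was below 0 on every forward array and above 0 on every swapped array.

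Several enzymes of cholesterol synthesis rose. The pathway runs from HMG-CoA to cholesterol under the SREBP transcription factors. Of 18 synthesis enzymes 8 rose, 1 fell and 9 did not pass, with a median log2 ratio of 0.15; without the wide arrays 9 rose and 0 fell. Of 5 regulators 0 passed, and 1 rose without the wide arrays. HMGCS1, which makes HMG-CoA, had 0.78, 0.37 and 0.29, and the sterol oxidase MSMO1 had 0.54, 0.27 and 0.38 (fitted log2 ratio 0.40 ± 0.05, adjusted p = 0.00951 by limma). Lanosterol synthase (LSS), squalene epoxidase (SQLE), lanosterol demethylase (CYP51A1), mevalonate kinase (MVK), NSDHL and HSD17B7 rose by 0.28 to 0.15. HMGCS1, SQLE and NSDHL stood at 0.31, 0.13 and 0.11 without the wide arrays. MVK averaged -0.05 on the forward arrays and 0.42 on the swapped ones. The sterol reductase TM7SF2 fell by 0.11, a call lost without the wide arrays, and MYLIP, which marks the LDL receptor for destruction, fell by 0.15. INSIG1, which holds SREBP back when sterols are plentiful, read 0.61, 0.08 and 0.44 and missed the threshold (adjusted p = 0.0556 by limma), as did DHCR7 (0.29). With 1 replicate left out, 3 to 9 of the 30 members of the full list passed. In those 6 fits NSDHL kept its call in 1, HMGCS1 in 3 and the other risen enzymes in 5 or 6. The letters TCACNCCAC, a form of the sterol regulatory element, stood in the promoter of 1 of 27 members (SREBF2) and of 1.15% of all promoters, and in 0 of the 7 risen genes with a promoter.

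Of 31 genes of fat and ketone use 2 rose and 6 fell, and without the wide arrays 5 rose and 6 fell; with 1 replicate left out 3 to 5 passed. Besides OXCT1, PLAAT3 and CPT1C, the muscle-type carnitine palmitoyltransferase CPT1B fell (-0.25, and -0.41, -0.25 and -0.08 in the replicates), as did fatty acid synthase, FASN (-0.14), whose call was lost without the wide arrays at -0.08. Lipoprotein lipase, LPL, rose evenly at 0.27, 0.34 and 0.28.

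**Figure D3:**
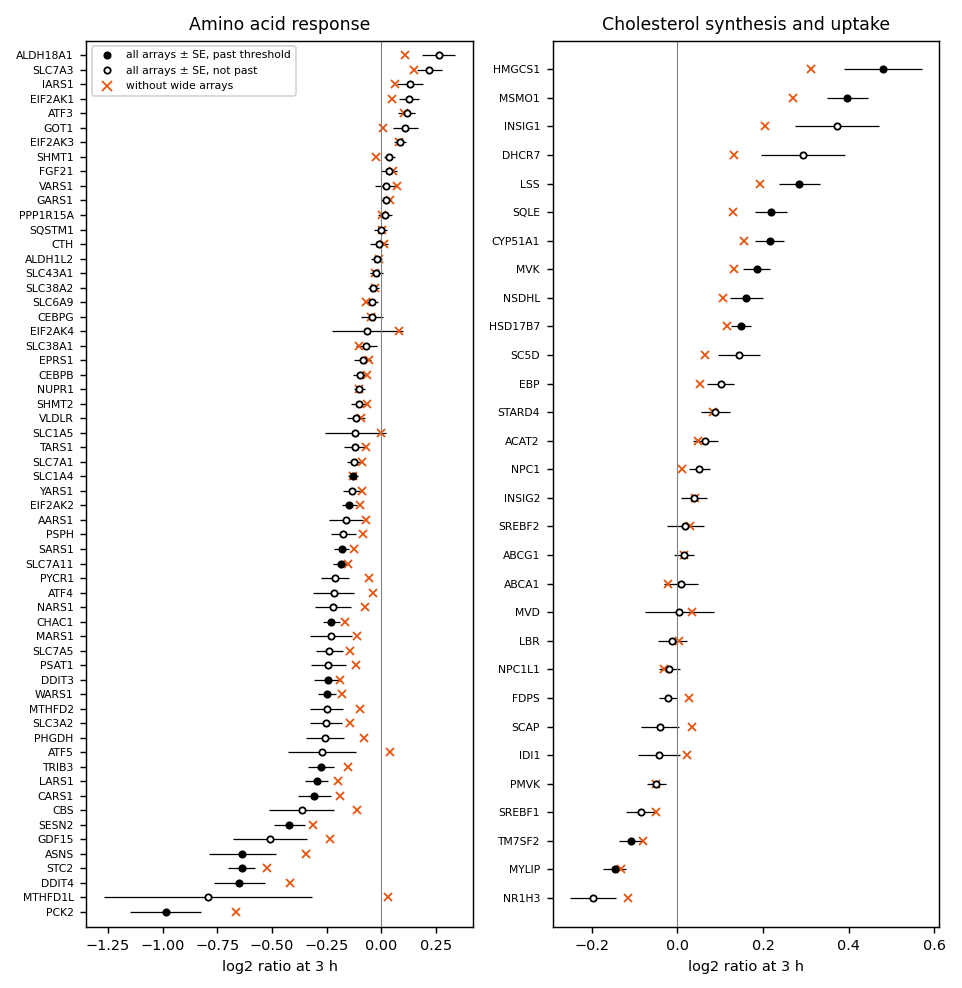
Log2 ratio at 3 h of every measured member of the amino acid response list (left) and of the cholesterol list (right). Points are fitted values over 3 replicates with the SE of the limma fit (filled where past the threshold). Crosses are values without the wide arrays. In the left panel 15 filled points lie below 0 and 0 above it; in the right panel 8 lie above 0 and 2 below it, and most crosses lie nearer to 0 than their points.

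Some genes of the retinoic acid system differed between knockdown and control at 3 h. Of 40 measured members 7 rose and 1 fell, against 6.84% and 5.77% of all genes, and without the wide arrays 7 rose and 5 fell. With 1 replicate left out 0 to 5 passed, and CRABP2, PRKD1 and ALDH1A3 each kept their call in 1 of the 6 fits. The receptor RARB, itself a direct target, rose by 0.20 (0.23, 0.23 and 0.14 in the replicates), and the retinol esterifying enzyme LRAT by 0.20 (0.28, 0.21 and 0.12). CRABP2, the carrier that hands retinoic acid to its receptors, fell with -0.65, -0.21 and -0.31. CYP26A1, the degrading enzyme that retinoic acid induces, read -0.17, -0.02 and 0.04 and did not pass (adjusted p = 0.51 by limma). Early targets that rose were PRKD1 (0.36), NEDD9 (0.20), HOXB2 (0.16) and GBX2 (0.14). The PRKD1 value is set by its forward arrays, since on the swapped arrays alone it was -0.01, and without the wide arrays it was 0.23. The probes of ALDH1A3 (0.14), a retinaldehyde dehydrogenase, ran from -0.03 to 0.33.

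HOX genes, which give the body axis its positional code, rose where they moved. Of 29 measured, 7 rose and 0 fell, and without the wide arrays 8 rose and 1 fell. Of the 7, 5 belong to the HOXD cluster. HOXD11 was even across replicates at 0.42, 0.43 and 0.46 and on the 4 arrays that were not wide, which ran from 0.33 to 0.43. HOXC9 had 0.22, 0.46 and 0.41, with replicate 1 the lowest. HOXD9, HOXD10, HOXD3 and HOXD1 rose by 0.26, 0.27, 0.20 and 0.33, and HOXD1 stood at 0.22 without the wide arrays. By position, 3 of 9 anterior, 0 of 8 central (paralogs 5 to 8) and 4 of 12 posterior genes passed, where 12.6% of all genes did; the difference between these classes was not tested. HOXD11, HOXC9, HOXD9 and HOXD3 passed in all 6 fits with 1 replicate left out, HOXD1 and HOXD10 in 3 and HOXB2 in 2. The list as a whole had 4 to 7 members past the threshold in those fits.

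Of 12 core transcription factors of the embryonal carcinoma state, MYC rose and 0 fell with all arrays, whereas without the wide arrays MYC rose and 4 fell. These were SALL4 (-0.18), PRDM14 (-0.19), MYCN (-0.10) and SOX2 (-0.07). Over the whole list of 35 genes, 7 rose and 1 fell with all arrays, and 9 rose and 5 fell without the wide ones. With all arrays the transcription factors POU5F1, NANOG and SOX2 had log2 ratios of -0.20, -0.01 and -0.05 with adjusted p-values of 0.388, 0.892 and 0.316 by limma. POU5F1 read -1.75 on the forward array of replicate 1 and -0.40 to 0.50 on the 4 arrays that were not wide. LIN28A (-0.16), SALL4 (-0.15), DNMT3B (-0.04), L1TD1 (-0.20) and PODXL (-0.24) missed the threshold too. Of 13 surface and secreted proteins of this state, 4 rose and 0 fell. GDF3, a TGF-beta family ligand, rose by 0.57 (0.86, 0.33 and 0.54; 0.36 without the wide arrays), E-cadherin (CDH1) by 0.35 (0.46, 0.27 and 0.34), THY1 by 0.25 and CD9 by 0.23. DPPA2 rose by 0.28, whereas DPPA3, a guardian of maternal methylation marks, fell by 0.29. MYC rose by 0.20, but its probes ran from -0.02 to 0.49 and the probe of smallest spread gave -0.02.

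Neural regulators moved in both directions. Of 54 factors and markers, 7 rose and 9 fell, and without the wide arrays 8 rose and 11 fell; with 1 replicate left out 3 to 15 passed. The patterning factors ZIC1 (0.57, 0.36 and 0.36), EN1 (0.46, 0.17 and 0.26), PAX6 (0.20, 0.25 and 0.25) and SIX6 (0.26, 0.22 and 0.21) rose. HESX1, SIX3 (-0.17, -0.23 and -0.27) and OTX2 (-0.24, -0.14 and -0.19) fell. EN2 passed as lower (-0.29), yet without the wide arrays it stood at 0.01. Of 12 neuronal markers GAP43 rose (0.21) and TUBB3, the neuronal beta-tubulin, fell (-0.53, -0.20 and -0.19; -0.20 without the wide arrays), while MAP2, DCX, STMN2 and NEFL read -0.09, -0.01, 0.09 and -0.12 and did not pass.

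Among mesoderm factors 5 of 17 rose and 0 fell, with all arrays and without the wide ones. EOMES, a T-box factor of the primitive streak, had 0.34, 0.38 and 0.29, and HAND1, a factor of heart and extraembryonic mesoderm, had 0.22, 0.34 and 0.23. TWIST1, SNAI1 and SNAI2, which drive the loss of epithelial character, rose by 0.21, 0.13 and 0.13. E-cadherin (CDH1), an epithelial gene, rose as well, by 0.35. With 1 replicate left out, 4 to 8 of the 35 mesoderm, endoderm and gonadal or pituitary genes passed. TWIST1 and SNAI2 each kept their call in 1 of the 6 fits, and EOMES and HAND1 in all 6. Among 13 endoderm genes 2 fell, and 1 rose and 3 fell without the wide arrays. The 2 were CXCR4 (-1.05, -0.38 and -0.62; -0.41 without the wide arrays) and CER1 (-0.13). FOXL2, an ovarian and pituitary factor, fell with -0.55, -0.44 and -0.64 and WT1, a factor of gonad and kidney, rose by 0.22.

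Ligands, receptors and inhibitors of the signalling pathways split within each pathway. Of 26 Notch genes 3 rose and 4 fell, and without the wide arrays 4 rose and 5 fell. The target HEY1 rose and its relative HEY2 rose by 0.15, whereas the targets HEYL and HES4 fell by 0.18 and 0.15. The ligand JAG1 rose (0.56, 0.20 and 0.18), JAG2 fell by 0.18, and the non-canonical ligand DLK1 fell with -0.71, -0.40 and -0.57. JAG1 stood at 0.18 without the wide arrays. Of 62 WNT genes 5 rose and 9 fell, and without the wide arrays 9 rose and 10 fell. The agonist RSPO1 fell with -0.46, -0.35 and -0.48, the receptor FZD8 with -0.57, -0.36 and -0.43 and the secreted inhibitors SFRP1 and FRZB by 0.36 and 0.29. SHISA3, which holds Frizzled receptors inside the cell, rose with 1.29, 0.50 and 0.76. SFRP1 stood at -0.22 and SHISA3 at 0.54 without the wide arrays. Of 50 TGF-beta and BMP genes 6 rose and 6 fell, and without the wide arrays 7 rose and 9 fell. They included the activin trap follistatin, FST (-0.51, -0.29 and -0.42), BMP7 (-0.22) and the inhibitor of differentiation ID4 (0.61, 0.22 and 0.18; 0.19 without the wide arrays). With 1 replicate left out 2 to 6 Notch, 4 to 13 WNT and 3 to 10 TGF-beta and BMP genes passed.

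Of 53 early genes of growth factor signalling 13 rose and 5 fell, against 6.84% and 5.77% of all genes, and without the wide arrays 14 rose and 5 fell; with 1 replicate left out 4 to 9 passed. The transcription factor FOS rose (0.50, 0.21 and 0.18), as did IER3 (0.44, 0.16 and 0.29) and the phosphatase DUSP1 (0.45, 0.21 and 0.14), which switches MAP kinases off. FOS and DUSP1 stood at 0.16 and 0.17 without the wide arrays. Among 16 genes of ERK feedback 6 rose and 2 fell. EGR1, another early transcription factor, fell with -0.30, -0.21 and -0.26.

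Cell cycle inhibitors and p53 targets moved in both directions. Of 36 measured, 5 rose and 9 fell, against 6.84% and 5.77% of all genes, and without the wide arrays 3 rose and 13 fell; with 1 replicate left out 5 to 10 passed. CDKN2A, which encodes the INK4A and ARF tumour suppressors, rose with 0.70, 0.30 and 0.39, whereas its neighbour CDKN2B fell with -0.21, -0.23 and -0.11. The p53 targets DDB2 (-0.87, -0.24 and -0.32), TP53INP1 (-0.34) and TP53I3 (-0.19) fell and GADD45B rose (0.55, 0.28 and 0.43). For DDB2 the forward array of replicate 1 read -1.47 and the 4 arrays that were not wide lay between -0.32 and -0.24. Without the wide arrays CDKN2A and GADD45B stood at 0.28, DDB2 at -0.27, TP53INP1 at -0.21 and TP53I3 at -0.12. Of 53 replication and mitosis genes 4 rose and 3 fell, a share of 13.2% near the 12.6% of all genes; without the wide arrays 9 rose and 5 fell, and with 1 replicate left out 1 to 4 passed. The kinetochore protein CENPF fell (-0.67, -0.30 and -0.20; -0.23 without the wide arrays) and the mitotic kinase CDK1 rose (0.20, 0.19 and 0.21).

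Genes of Polycomb and of H2A ubiquitination passed about as often as genes at large. Of 52 measured, 4 rose and 3 fell, against 6.84% and 5.77% of all genes, and without the wide arrays 4 rose and 5 fell; with 1 replicate left out 2 to 6 passed. UBE2E1, a ubiquitin-conjugating enzyme, rose by 0.49, with 0.64, 0.63 and 0.20 in the replicates. The methyltransferase EZH2 rose by 0.19 (0.18, 0.14 and 0.26), the demethylase KDM6A by 0.23 and the PRC1 subunit PCGF6 by 0.23. The demethylase KDM5B fell with -0.51, -0.22 and -0.39, and ASXL2 of the H2A deubiquitinase by 0.21. EZH2, KDM6A and PCGF6 stood at 0.12, 0.15 and 0.14 without the wide arrays, and KDM5B at -0.21.

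Of 61 matrix genes 16 rose and 5 fell, against 6.84% and 5.77% of all genes. Without the wide arrays 16 rose and 6 fell, and with 1 replicate left out 10 to 16 passed. Proteases, crosslinking enzymes and their inhibitors made up 7 of the risen genes, of 12 measured, with 0 lower; without the wide arrays 3 of the 12 passed. MMP9, a gelatinase, had 0.61, 0.29 and 0.35. IGFBP7, a secreted binder of insulin-like growth factors, had 0.95, 0.51 and 0.66, and the collagens COL13A1 and COL5A2 rose by 0.41 and 0.28 while COL1A1 fell with -0.33, -0.23 and -0.24. IGFBP7 and COL13A1 stood at 0.46 and 0.25 without the wide arrays. Among cytoskeletal genes and YAP targets (6 rose and 4 fell of 45, and 9 and 6 without the wide arrays), MYH9 and RHOB (0.38, 0.28 and 0.36) rose, and ARHGAP36, an inhibitor of protein kinase A, fell evenly with -0.46, -0.56 and -0.69. Of 39 epithelial, keratin and trophoblast genes 7 rose and 3 fell, and without the wide arrays 10 rose and 3 fell. Those that fell included CLDN6, a tight junction protein of embryonic epithelia, at -0.93, -0.29 and -0.34, and keratin 19 (KRT19) at -0.28; they stood at -0.30 and -0.18 without the wide arrays.

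Markers of other cell types moved as follows, and their part in the results above was not tested. Of 19 fibroblast markers 5 rose and 1 fell, and 7 and 3 without the wide arrays, with a median log2 ratio of 0.03; with 1 replicate left out 2 to 3 passed. The risen ones (THY1, LUM, TWIST1, SNAI2 and S100A4) ranged from 0.11 to 0.25, several of them counted in the lists above. Of 19 blood and immune markers 3 rose and 0 fell (TAGAP, KEL and HBG1), with a median of 0.02. Without the wide arrays 3 rose and 0 fell as well, though KEL did not pass there. Of 10 trophoblast markers 3 rose, namely HAND1, TFAP2A (0.18) and GATA2 (0.15), and XAGE3 fell (-0.20).

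Interferon and innate immune genes also split. Of 60 measured, 10 rose and 5 fell, and without the wide arrays 12 rose and 12 fell; with 1 replicate left out 4 to 10 passed. Sensors rose in 5 of 13 cases: besides NLRP2, these were NLRP7 (0.24), RIGI, a detector of viral RNA (0.27), NLRP3 (0.17) and TLR4 (0.13). The call of NLRP3 was lost without the wide arrays. Lower were MX2, the peptide transporter TAP1, even at -0.38, -0.33 and -0.35, HLA-C (-0.26), IFITM1 (-0.26) and ISG15 (-0.22). HLA-C and ISG15 stood at -0.15 and -0.13 without the wide arrays. Of 41 hypoxia and glycolysis genes 7 rose and 4 fell, against 6.84% and 5.77% of all genes, and without the wide arrays 7 rose and 6 fell. With 1 replicate left out 0 to 7 passed, at most 2 of them higher, and HIF1A, PDK1 and PFKP each kept their call in 1 of the 6 fits. HIF1A rose by 0.26, and by 0.10 without the wide arrays, PDK1, which diverts pyruvate from mitochondria, rose by 0.29, and by 0.18 without them, and phosphofructokinase PFKP fell with -0.49, -0.24 and -0.28.

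**Figure D4:**
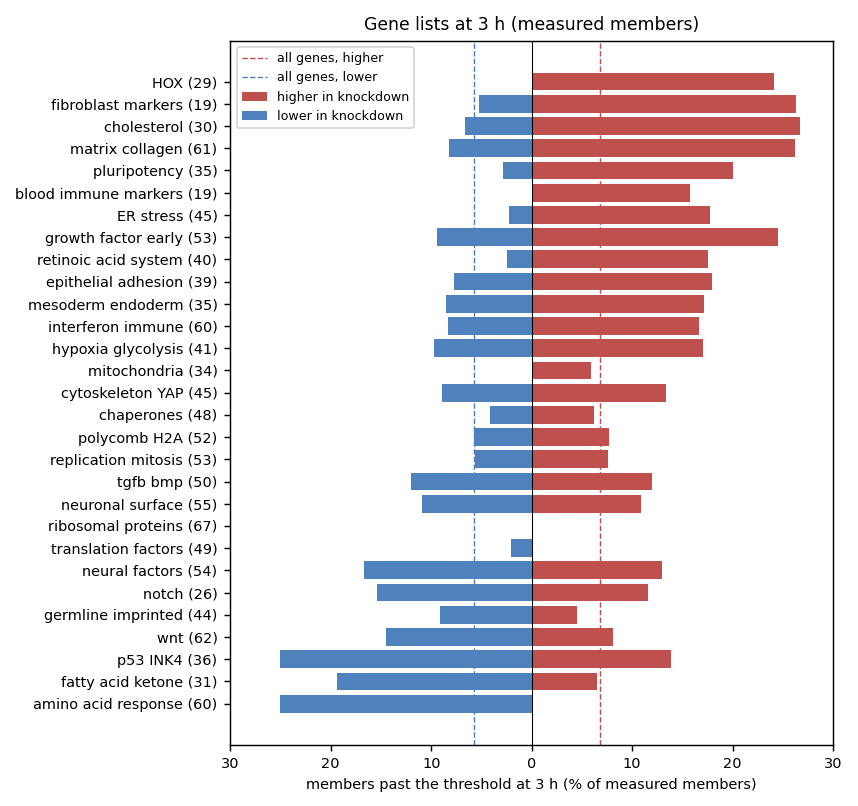
Share of the measured members of each gene list (number in brackets) that rose (right, red) or fell (left, blue) at 3 h, in percent of measured members. Dashed lines mark the shares of all genes, 6.84% higher and 5.77% lower. With all arrays, the HOX, blood and immune marker and mitochondria lists have calls on the higher side and none lower. The amino acid response and translation factor lists have calls on the lower side and none higher.

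The share of genes called differed among chromosomes, against 6.84% higher and 5.77% lower over all genes. On chromosome 7, 180 of 887 genes rose (20.3%) and 17 fell, with a median log2 ratio of 0.05 with all arrays and without the wide ones. On chromosome 10, 83 of 711 genes fell (11.7%) and 66 rose (9.28%). On chromosome 17, 109 of 1120 genes fell (9.73%) and 35 rose. DNAJC2 is itself on chromosome 7.

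Most genes called at 3 h had the same direction before retinoic acid. Of the 2350 genes called at 3 h, 97.6% had the same sign at 0 h, against 67.1% of all genes. At 0 h 1271 of the 18646 genes passed, and 966 of them were called at 3 h in the same direction. The 0 h replicates helped to set the spread of the same fit. The 3 h effect minus the 0 h effect passed for 0 genes (0% of 18646) by limma; 943 had an unadjusted p under 0.05, and the smallest adjusted p was 0.718. The difference was 0.86 for UBE2E1, with 0.49 at 3 h and -0.37 at 0 h, and it had an adjusted p of 0.718 by limma. With replicate 3 at 3 h left out, the UBE2E1 difference was 1.01 (adjusted p = 0.0414 by limma), the lone gene past the threshold in any such fit. Genes that passed at 3 h and read near 0 at 0 h included HOXD1 (0.33 and 0.03), DUSP1 (0.27 and 0.00) and ID4 (0.33 and 0.01). Their differences did not pass, so they are not shown to differ between the times.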

How the data were processed

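RNA was hybridised to Agilent 2-colour arrays, knockdown and control in opposite channels. The deposited values are a score, the signed fold change of Cy5 over Cy3, in which ratios under 1 are written as the negative inverse; this was read from the values, of which 0 lay between -1 and 1. The submitters' processing notes name limma; its version, background correction and normalization are not given in the sources used here.

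Values were converted to log2, swapped arrays (per the titles) were turned, and probes of a gene were averaged. Of 41000 probes, 29341 had 1 symbol, 33 several and 11626 none; 29298 of the first matched RefSeq (GRCh38.p14), giving 18646 genes. The forward and swapped arrays of a replicate were averaged. limma 3.58.1 in R 4.3.3 (lmFit, eBayes) was fitted to the 6 averages of both times, with a coefficient per time (4 residual degrees of freedom), p-values were adjusted by Benjamini-Hochberg over all genes, and the threshold was 0.05. No block was used, since replicates of the same number correlated at 0.0365, -0.0287 and -0.305 in their deviations. The fit without wide arrays used single arrays, a dye coefficient and the replicate as a random block. The procedure was tested on simulated data.

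The genes named are DNAJC2, the 20 highest and 20 lowest called genes with 1 sign in all replicates, and up to 8 called members of each of 29 lists by size (or the 2 smallest p where none passed); further list members are named to describe a list. Genes with extreme readings were picked after their values were seen. The lists and the comparison were chosen with earlier results of these data known, and some leading genes sit in lists. The labels do not say whether replicates are separate cultures, so p-values measure the spread between these samples. The number of arrays limits the precision.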

Additional observations from a re-analysis of the deposited data

Results flagged for a closer look

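The forward array of replicate 1 at 3 h stood apart from the other 5 arrays at that time. Between percentiles 1 and 99 its log2 ratios spanned 3.04, its lowest log2 ratio was -29.5, and it held 19 probes beyond 32-fold. It also stood apart for DNAJC2 (-2.73) and for the median of the amino acid response genes (-0.41). An array was taken to stand apart where its gap to the nearest other array exceeded Dixon's 95% critical value, which chance alone does in about 1 of 20 groups. Of 207 named genes 70 stood apart on this array and 4 on another. Of 29 gene lists 1 did so in its median.

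Beyond 32-fold on that array lay 6 genes, of which 0 passed the test. HNRNPR, an RNA-binding protein, read -10.3 there and -0.06 to 0.12 on the 4 arrays that were not wide. VIPAS39, a vesicle sorting protein, read -8.78 there and -0.07 to 0.08 on them. The remaining ones were ADGRE5 (-14.8), LINC02478 (-13.6), NTRK3 (-6.09) and MTHFD1L (-5.04).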

How the results depend on the processing

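The count of 2350 genes moved with the processing. It was 3600 with arrays rescaled by width, 3666 after quantile normalization, 3567 with single arrays and a dye coefficient, and 3722 with array weights. It was 1262 with forward arrays alone, 0 with the 3 h replicates alone (4147 at an unadjusted p under 0.05), 0 with the replicate block (4687) and 0 against 1.2-fold (183). Leaving out 1 replicate gave 697 to 1490. The lowest came without replicate 2 at 3 h; without replicates 1 and 3 at 3 h it was 1465 and 1094, and without replicates 1, 2 and 3 at 0 h it was 946, 1490 and 980. It was within 1.5 times of 2350 without the wide arrays (3467), with swapped arrays alone (2685) and with the probe of smallest spread (2903). The difference between times gave 0 to 1 genes in the fits with 1 replicate left out, and 0 with the block. Whether replicates of the same number at 0 h and 3 h belong together is not stated in the labels. The block is therefore given as a comparison, and pairing is left undecided. The signs of 6 named genes reversed: MYC to -0.021 and SLC1A3 to -0.0147 (probe of smallest spread), PRKD1 to -0.0139 and RPL27A to 0.171 (swapped arrays alone), EN2 to 0.0067 (without the wide arrays) and MVK to -0.0463 (forward arrays alone). The cause was not tested. Of 204 named genes past the threshold, 70 passed in all 6 fits with 1 replicate left out. Without intensities, a limit set by background cannot be given.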

Other observations

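Among 44 germline and imprinted genes 2 rose and 4 fell at 3 h, a share of 13.6% near the 12.6% of all genes, and without the wide arrays 2 rose and 7 fell. PEG3, a paternally expressed zinc finger gene, fell evenly (-0.34, -0.43 and -0.42 in replicates 1 to 3), and the growth factor IGF2 fell with -0.54, -0.23 and -0.27. The forward array of replicate 1 read -0.90 for IGF2, below the other 5. MAEL, a protein of the piRNA pathway, rose with 0.34, 0.50 and 0.38. Among 55 neuronal surface genes 6 rose and 6 fell, against 6.84% and 5.77% of all genes, and without the wide arrays 10 rose and 6 fell. The serotonin receptor subunit HTR3C rose by 0.55, and by 0.72 without the wide arrays. Its forward array of replicate 1 read -0.08, below the other 5. The glutamate transporter SLC1A6 fell with -0.67, -0.43 and -0.52, and its relative SLC1A3 rose by 0.23, with probes from -0.01 to 0.47. The Eph receptor EPHA1 rose by 0.43 and its ligand EFNA1 by 0.31, and by 0.20 without the wide arrays. Among 34 mitochondrial genes 2 rose, NDUFB5 of complex I (0.21) and IDH3A (0.11). The call of NDUFB5 was lost without the wide arrays at 0.11, and there 4 of the genes rose and 1 fell.

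The letters GAANNTTC, a core of the heat shock element, stood in the promoters of 10 of 43 chaperone genes (23.3%) and of 6.87% of all promoters.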
